A study of Rattus norvegicus with 6 samples.

Results

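The Hox genes are homeobox transcription factors that lie in 4 chromosomal clusters, Hoxa, Hoxb, Hoxc and Hoxd. Within a cluster the genes are numbered by position, and genes that carry the same number in different clusters are paralogs that arose by duplication of an ancestral cluster. Their order along the chromosome follows the order in which they are switched on along the body axis and, for the higher numbers, along the limb, and skeletal cells keep part of that pattern after birth. Retinoic acid acts through nuclear receptors that bind paired core motifs in DNA, and response elements are known beside low-numbered genes such as Hoxa4, Hoxb4 and Hoxd4.

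The members were all genes of the deposited tables whose symbol is Hox, a cluster letter from a to d and a number. This rule uses the name alone and no measured value. It found 33 of 18923 gene records, with 7 in Hoxa, 9 in Hoxb, 9 in Hoxc and 8 in Hoxd. They carry 32 symbols, since 2 identifiers, ENSRNOG00000053884 and ENSRNOG00000061531, are both named Hoxa11. Of the 39 Hox symbols that RefSeq gives for the rat, 7 were not analysed here.

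The cells were primary chondrocytes of wild-type female Sprague-Dawley rats taken 24 h after birth and used at passage 1 or 2. The CON group (n = 3) was kept for 24 h in high-glucose DMEM with 10% serum, and the RA group (n = 3) in the same medium with 1 µM all-trans retinoic acid. All 6 samples were poly(A) RNA libraries and held 29370025 to 38007486 counted reads each. CON sample 1 stood apart from the other CON samples. Over genes, the chi-square per degree of freedom between libraries of a group was 39.6 and 63.3 for its pairs and 6.53 to 8.25 for the other 4 pairs. The skeletal site of the cartilage, the pooling of animals and the passage of each sample are not given in the sources used here. The methods call the samples of a group independent and the replicates biologically independent, without saying whether they were separate animals or cultures, so p-values measure the spread between these samples, which may be technical.

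Both the label and the treatment were checked on genes outside the clusters. All 10 chondrocyte markers had high levels, and their summed level in FPKM (fragments per kilobase of gene, scaled to the reads of the library) was 8030 to 9930 in CON and 5030 to 5360 in RA. In the fit described next to the Hox results, 9 of these 10 were lower in RA, as were 2.29% of all tested genes, and Sox9 fell by 0.49 on the log2 scale, short of the fold threshold. Summed fibroblast markers were at 3710 to 4910 FPKM in CON and 4810 to 5060 in RA, so the cultures also held abundant collagen type I and III transcripts. Endothelial markers summed to at most 0.214 FPKM in any sample. The sums in CON and RA were 1.32 to 2.11 and 2.64 to 3.49 FPKM for osteoblast markers, 13.2 to 14.6 and 16.1 to 17.3 for macrophage markers and 5.17 to 7.13 and 7.47 to 8.14 for muscle markers. Single genes carried the last 2 sums. Cd14 averaged 12.9 FPKM in CON and 15.3 in RA, and Des 5.09 and 6.72. Group means of the other macrophage markers were at most 1.28 FPKM, with Csf1r, Adgre1 and Ptprc at most 0.171. Those of the other muscle markers were at most 0.697. Among the 6, 3, 2 and 3 tested genes of the fibroblast, macrophage, osteoblast and muscle lists, Ibsp of osteoblasts and Myod1 of muscle were higher in RA and no other passed both the test and the fold threshold. Both had low levels. Ibsp averaged 0.55 FPKM in CON and 1.54 in RA, and Myod1 had 7, 4 and 7 reads in CON and 25, 22 and 17 in RA. In bulk RNA, fewer cells of a type and less RNA per cell cannot be told apart. Of 12 retinoid genes, 7 were higher and 1 lower in RA, where 2.67% of all tested genes were higher and 2.29% lower. The lower one was Rarres1, which averaged 4.43 FPKM in CON and 2.44 in RA. Its log2 fold change was -0.87 (edgeR adjusted p = 0.0121). Cyp26a1, which encodes an enzyme that breaks down retinoic acid, was at 0.562, 0.24 and 0.366 FPKM in CON and at 4.65, 3.47 and 3.92 in RA. The lowest RA value lay above the highest CON value, and the log2 fold change (log2FC) was 3.35 (edgeR adjusted p = 0.000213).

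The stretches of DNA before 5 start sites are printed to show what a paired retinoid receptor site looks like next to Hox promoters. They come from RefSeq windows on the GRCr8 build, which is a later build than the Rnor_6.0 named for the deposited tables. The first line belongs to Cyp26a1, and the others to Hoxd4 and Hoxc4, the 2 paralog group 4 genes with the highest levels, and to Hoxd10 and Hoxd9, 2 of the 3 Hox genes with the highest levels. Capitals mark a receptor core motif on either strand. The first motif searched was AGGTCA. A variant form searched beside it was GGTTCA. A further variant, which was added to the search after the windows had been read, was AGTTCA. Every match before these 5 starts was on the minus strand, so it appears in print as the reverse complement of the motif.
Cyp26a1 (chr1:244883572-244883821, plus strand): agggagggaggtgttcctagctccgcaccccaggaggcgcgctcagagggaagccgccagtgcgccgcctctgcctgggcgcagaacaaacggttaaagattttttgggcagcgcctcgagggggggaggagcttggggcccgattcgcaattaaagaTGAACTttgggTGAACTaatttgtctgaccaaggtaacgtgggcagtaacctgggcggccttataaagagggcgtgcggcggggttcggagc
Hoxd4 (chr3:80021636-80021885, plus strand): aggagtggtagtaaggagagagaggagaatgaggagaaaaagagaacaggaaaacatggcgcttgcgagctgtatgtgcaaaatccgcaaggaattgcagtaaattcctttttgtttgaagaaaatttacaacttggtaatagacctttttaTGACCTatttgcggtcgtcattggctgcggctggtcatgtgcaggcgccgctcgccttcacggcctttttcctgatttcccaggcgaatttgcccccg
Hoxc4 (chr7:136048809-136049058, plus strand): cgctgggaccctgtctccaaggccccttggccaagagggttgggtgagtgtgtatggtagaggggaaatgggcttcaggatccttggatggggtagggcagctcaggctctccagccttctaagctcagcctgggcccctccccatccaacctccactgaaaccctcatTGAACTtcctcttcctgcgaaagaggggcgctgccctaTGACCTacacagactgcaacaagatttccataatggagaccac
Hoxd10 (chr3:80001697-80001946, plus strand): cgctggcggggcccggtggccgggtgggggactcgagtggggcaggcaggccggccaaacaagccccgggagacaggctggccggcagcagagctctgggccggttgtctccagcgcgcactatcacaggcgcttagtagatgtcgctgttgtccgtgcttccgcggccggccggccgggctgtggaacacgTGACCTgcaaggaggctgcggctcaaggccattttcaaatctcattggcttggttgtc
Hoxd9 (chr3:80007756-80008005, plus strand): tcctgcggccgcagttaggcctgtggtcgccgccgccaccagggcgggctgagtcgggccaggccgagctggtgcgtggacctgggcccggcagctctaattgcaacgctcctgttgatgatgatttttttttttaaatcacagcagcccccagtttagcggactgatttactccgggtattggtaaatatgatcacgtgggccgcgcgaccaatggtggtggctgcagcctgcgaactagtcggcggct

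In the Cyp26a1 sequence, 2 core motifs stood in the same orientation with 5 bases between them, from base -92 to -76 before the start. The window of Rarb, a retinoic acid receptor gene, held the same kind of direct repeat just after its start:
Rarb (chr15:11336416-11336432, plus strand): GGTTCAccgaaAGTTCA
Windows were at hand for 15 of the 32 Hox symbols, 8 of them among the genes tested for a response, and Hoxa10 had 2. They belonged to Hoxa genes, Hoxd genes and Hoxc4, so no Hoxb gene and no other Hoxc gene was covered. The search covered 250 bases before and 50 after each start. At least 1 core motif was present in 4 of these 16 windows (25%), those of Hoxd4, Hoxd10, Hoxd13 and Hoxc4, against 35.9% of all 33469 rat windows. None of the 16 held a direct repeat with a spacer of 1, 2 or 5 bases, which 0.595% of all windows did. A match describes letters only, and known Hox response elements can lie outside such windows.

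Among the records at hand, Hox reads came almost wholly from Hoxc and Hoxd. A member was counted as detected in a group when it had at least 10 reads in each of the 3 samples. By that count 7 of 9 Hoxc genes and 6 of 8 Hoxd genes were detected in both groups. In Hoxb 1 of 9 was detected in both groups, and in Hoxa 1 of 7 was detected in CON and 0 in RA. Hoxc held 43.9% and Hoxd 54.2% of the 22069 Hox reads, while Hoxb held 1.38% and Hoxa 0.53%. On the length-corrected FPKM scale, Hoxd made up 51.6 to 54.5% of the Hox signal per CON sample and 52.5 to 52.6% per RA sample. For Hoxc the shares were 43.3 to 45.1% and 44.8 to 45.3%.

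**Figure D1:**
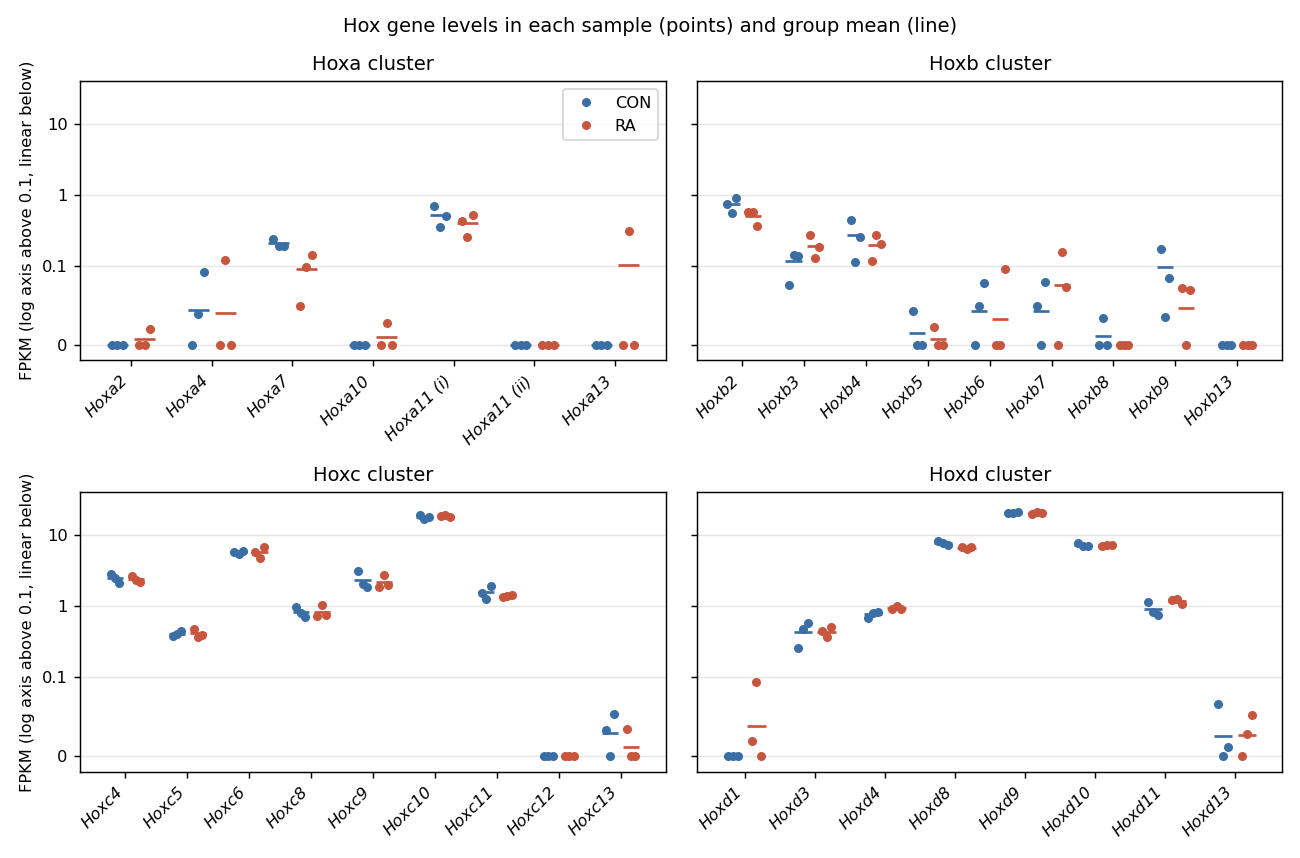
FPKM of each of the 33 Hox records in the 6 samples, by cluster and in paralog order, on an axis that is logarithmic above 0.1 and linear below it. Points are samples, short lines are group means (n = 3), and the labels (i) and (ii) are the 2 records named Hoxa11. Hoxd9 and Hoxc10 stand at the top near 20.5 and 18.3 FPKM, and CON and RA points lie close together for the genes with high levels.

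The levels differed between genes far more than between the groups. Hoxd9, a posterior gene that also acts in the proximal limb, was at 20.5, 20.1 and 21.0 FPKM in CON and at 19.8, 21.0 and 20.3 in RA. Its group values overlapped, and it stood at the 72.1 percentile of all tested genes. Hoxc10, a gene of the lumbar region and hindlimb, came next with 19.3, 17 and 17.7 FPKM in CON and 18.5, 19.3 and 17.8 in RA. Here too the groups overlapped. Hoxd10 followed at 7.76, 7.05 and 7.01 FPKM in CON and 7.06, 7.29 and 7.09 in RA, with overlapping groups. Hoxd9, Hoxc10, Hoxd10, Hoxd8 and Hoxc6 together made up 82.2 to 84.4% of the Hox FPKM in each sample.

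In the order of mean FPKM over the 6 samples, Hoxd8 (7.14), Hoxc6 (5.74), Hoxc4 (2.41), Hoxc9 (2.24), Hoxc11 (1.47) and Hoxd11 (1.03) came after Hoxd10 (7.21). Below 1 FPKM stood Hoxd4 (0.849), Hoxc8 (0.827), Hoxb2 (0.618), Hoxa11 (0.457), Hoxd3 (0.434), Hoxc5 (0.409) and Hoxb4 (0.233). The range over samples did not meet that of the next gene at 4 steps, between Hoxd9 and Hoxc10, Hoxc10 and Hoxd10, Hoxc6 and Hoxc4, and Hoxc11 and Hoxd11. All other neighbours in this order overlapped. The 16 genes ranged from the 4.29 to the 72.1 percentile of tested genes.

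Along the Hoxd cluster the mean level rose to Hoxd9 and dropped on both sides of it. It went from 0.0186 FPKM for Hoxd1 through 0.434 for Hoxd3, 0.849 for Hoxd4 and 7.14 for Hoxd8 to 20.5 for Hoxd9. Beyond it, Hoxd10 was at 7.21, Hoxd11 at 1.03 and Hoxd13, which patterns the digits, at 0.0259. The Hoxc cluster had no such single slope, with Hoxc6 (5.74 FPKM) between Hoxc5 (0.409) and Hoxc8 (0.827), and its highest gene Hoxc10 (18.3) between Hoxc9 (2.24) and Hoxc11 (1.47). Hoxc12 had no read and Hoxc13 at most 2 reads in a sample. Hoxc4, Hoxc5 and Hoxc6 have transcripts that overlap in mammals, and how the counting divided such reads is not given in the sources used here.

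Among the records at hand, single genes dominated most paralog groups. Shares are of these records, which hold no Hoxa3, Hoxa5, Hoxa6 or Hoxa9. Hoxd9 held 89.5% ± 2.76 (SD, n = 3) of the FPKM of group 9 in CON and 90.3% ± 1.39 in RA. In group 8, Hoxd8 held 90.3% ± 0.888 in CON and 88.8% ± 2.47 in RA. Group 10 was shared by Hoxc10, with 71.2% ± 0.519 in CON and 72.1% ± 0.543 in RA, and Hoxd10 with most of the rest. In group 4 the share of Hoxc4 was 69.3% ± 4.3 in CON and 67.0% ± 5.24 in RA, and that of Hoxd4 was 21.9% ± 4.05 and 26.4% ± 1.75. In group 11 the signal was spread over 3 clusters. Hoxc11 held 52.9% ± 7.47 in CON and 46.7% ± 1.62 in RA, Hoxd11 30.2% ± 5.72 and 39.7% ± 4.08, and Hoxa11 17% ± 3.25 and 13.5% ± 4.33. Groups 9 to 13 together made up 71.7 to 72.4% of the Hox FPKM per CON sample and 72.4 to 75.3% per RA sample.

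The response to retinoic acid was tested with edgeR's quasi-likelihood test on counts across all genes, and a differentially expressed gene (DEG) had an adjusted p below 0.05 and a log2FC beyond 0.58 in either direction. Enough reads for the test were present for 16 of the 33 members, 1 in Hoxa, 2 in Hoxb, 7 in Hoxc and 6 in Hoxd. None of the 16 was a DEG, while 4.96% of the 13438 tested genes were. The count was also 0 of 16 by DESeq2 and by limma on FPKM. It was 0 of 17 tested without CON sample 1, where 755 genes in place of 667 were DEGs. At a share near 5%, 0 of 16 lies close to the background and does not set the Hox genes apart. At an unadjusted p below 0.05, 0 of 16 were called, against 24.0% of all tested genes. Of all tested genes 9.82% passed the adjusted p alone and 7.57% the unadjusted p with the fold threshold, and 0 of 16 Hox genes passed either. The lowest p was 0.0905 for Hoxd8, with an edgeR adjusted p of 0.29. The log2FC was above 0 for 5 members and below 0 for 11, and its median was -0.0316 beside -0.00571 for all tested genes.

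**Figure D2:**
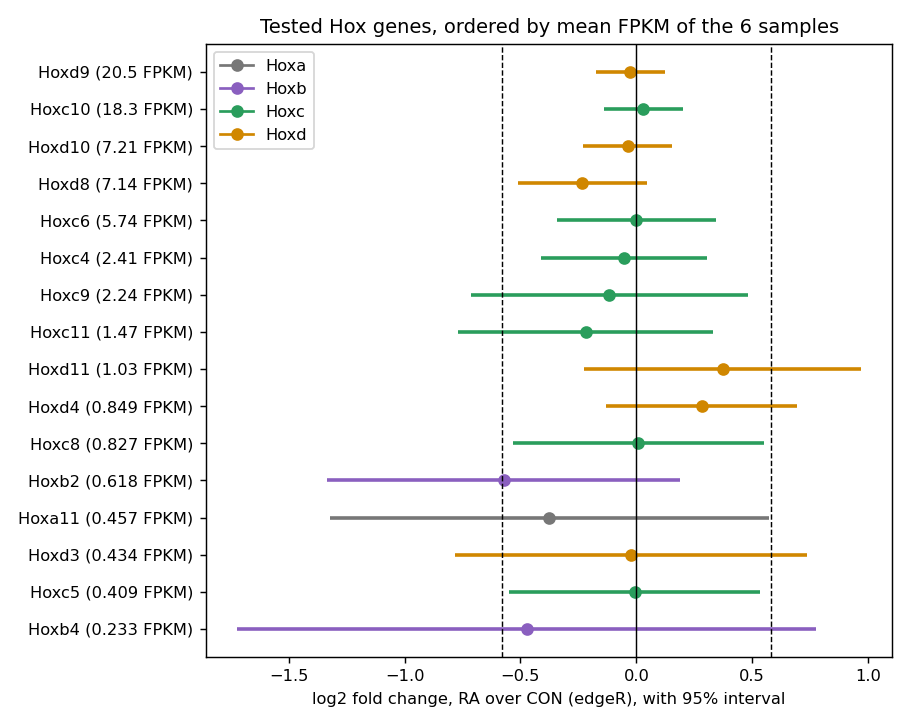
Log2 fold change of RA over CON (dots) with its 95% interval from edgeR (lines) for the 16 tested Hox genes, coloured by cluster and ordered by mean FPKM with the highest on top. Solid and dashed vertical lines mark 0 and the fold threshold of 0.58 either way. All 16 intervals cross 0, and they widen from 0.148 on each side for Hoxd9 to 1.25 for Hoxb4.

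The intervals give the sizes of change that the data leave possible. All 16 of the 95% intervals included 0. For 8 of the 16 (50%) the whole interval lay within 0.58 of 0, compared with 64.3% of all tested genes. These were Hoxc4, Hoxc5, Hoxc6, Hoxc8, Hoxc10, Hoxd8, Hoxd9 and Hoxd10. Hoxd9, with 1058 to 1435 reads per sample, had a log2FC of -0.03 (95% interval -0.17 to 0.12). For Hoxc10 it was 0.03 (-0.14 to 0.20) and for Hoxd10 -0.04 (-0.23 to 0.15). Each of the 3 turned its direction when 1 sample was left out, Hoxd9 to 0.0017 without RA sample 1, Hoxc10 to -0.015 without CON sample 2 and -0.0041 without RA sample 2, and Hoxd10 to 0.0069 without CON sample 1. The intervals of the other 8 reached past the threshold on at least one side, so these data do not exclude a change of that size in Hoxa11, Hoxb2, Hoxb4, Hoxc9, Hoxc11, Hoxd3, Hoxd4 and Hoxd11.

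**Figure D3:**
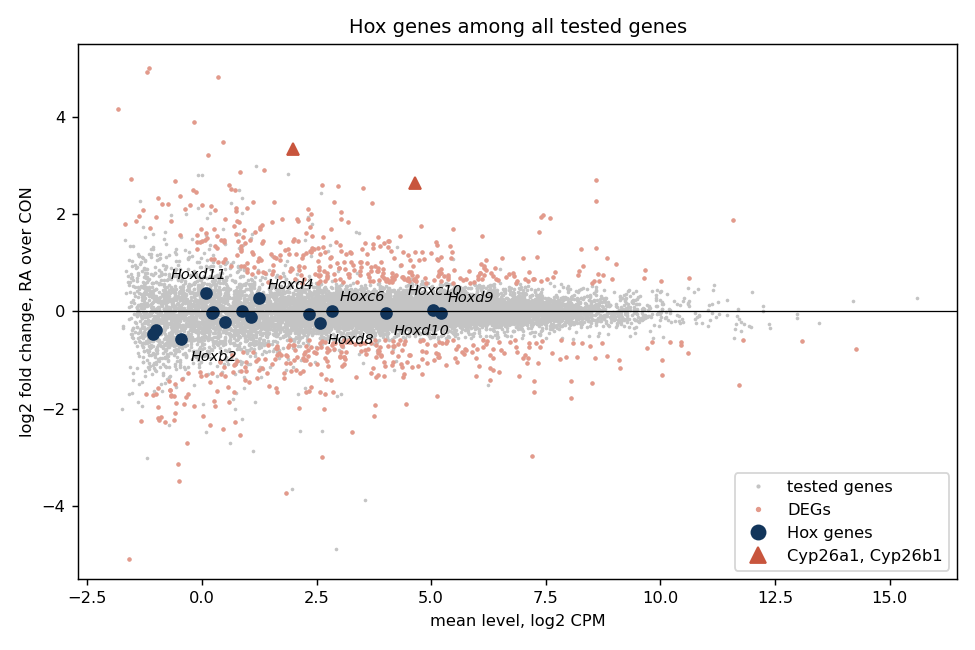
Log2 fold change of RA over CON against the mean level in log2 CPM (counts scaled to the library's reads) for the 13438 tested genes, with DEGs in pale red, the 16 Hox genes in dark blue and Cyp26a1 and Cyp26b1 as triangles; 1 gene lies outside the plotted range of 5.5 either way. The Hox genes lie between -0.57 and 0.37, and Cyp26a1 lies at 3.35.

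In Hoxd, 2 genes had groups that did not overlap, and both missed the test. This was 2 of 16 members, while 31.9% of all tested genes had groups without overlap. Hoxd8 was at 8.23, 7.70 and 7.12 FPKM in CON and 6.81, 6.31 and 6.65 in RA. Every RA value lay below every CON value, with a log2FC of -0.23 (-0.51 to 0.05, edgeR adjusted p = 0.29). Hoxd4 encodes a factor of the hindbrain and upper spine and has a known retinoid enhancer. It was at 0.677, 0.799 and 0.810 FPKM in CON and 0.900, 1.01 and 0.899 in RA. Each RA value lay above each CON value, and the log2FC was 0.28 (-0.13 to 0.69, edgeR adjusted p = 0.383).

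Other Hoxd genes had overlapping groups. Hoxd11, a gene of the forearm and lower leg segment, was at 1.13, 0.808 and 0.749 FPKM in CON and 1.20, 1.25 and 1.05 in RA. The highest CON sample reached into the RA range, and the log2FC of 0.37 had an interval from -0.23 to 0.97. It was 0.56 without CON sample 1. Hoxd3 averaged 0.434 FPKM in both groups, with a wider spread in CON (SD 0.161) than in RA (SD 0.0676). Hoxd1, a paralog group 1 gene, had no read in any CON sample and 1, 5 and 0 reads in RA. RA sample 2 held 5 of these 6 reads. The gene did not pass the count filter, and since CON had no read, a fitted fold change would depend on the prior count and is not given. Hoxd13 had 5, 0 and 1 reads in CON and 0, 2 and 4 in RA.

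In Hoxc, the 7 tested genes had log2FC values from -0.22 (Hoxc11) to 0.03 (Hoxc10), and every one had overlapping groups. That of Hoxc11 was -0.03 without CON sample 3 and -0.36 without CON sample 2. Hoxc6, a thoracic gene, was at 5.77, 5.44 and 5.93 FPKM in CON and 5.77, 4.76 and 6.76 in RA. Its RA samples enclosed the CON range, and its log2FC was 0.00 (-0.34 to 0.34). Hoxc4 was at 2.79, 2.47 and 2.09 FPKM in CON and 2.67, 2.29 and 2.17 in RA, again overlapping. Its log2FC was -0.05 with all samples and 0.05 without CON sample 1. Hoxc9 was at 3.06, 2.06 and 1.84 FPKM in CON and 1.84, 2.68 and 1.94 in RA, with 1 sample in each group above the other two. Its log2FC of -0.12 became 0.13 without CON sample 1.

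Hoxb and Hoxa genes were near the limit of detection. Hoxb2, a hindbrain segment gene and the highest of its cluster, had 24, 18 and 37 reads in CON and 18, 18 and 12 in RA, or 0.734 ± 0.176 and 0.502 ± 0.12 FPKM (mean ± SD, n = 3). The groups overlapped, and the log2FC of -0.57 was the lowest of the 16 members, with an interval from -1.34 to 0.19 (edgeR adjusted p = 0.337). It was -0.37 without CON sample 3 and -0.39 without RA sample 3. Hoxb4 had 24, 6 and 17 reads in CON and 6, 14 and 11 in RA, which overlapped widely. Its log2FC was -0.47 (-1.72 to 0.78) with all samples and 0.04 without CON sample 1. Hoxb3 was not tested and had 5, 9 and 11 reads in CON and 17, 8 and 12 in RA, with overlapping groups. Hoxb5, Hoxb6, Hoxb7, Hoxb8 and Hoxb9 had at most 6 reads in any sample, and Hoxb13 had none.

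In Hoxa, the record of Hoxa11 with reads had 20, 10 and 18 in CON and 12, 7 and 15 in RA. The groups overlapped, and the log2FC was -0.38 (-1.32 to 0.57, edgeR adjusted p = 0.621). It was -0.13 without CON sample 1, -0.14 without RA sample 2, -0.58 without CON sample 2 and -0.60 without RA sample 3. The second Hoxa11 record had no read. Hoxa4 had 0, 1 and 3 reads in CON and 0, 3 and 0 in RA. Hoxa7 had 5, 4 and 5 reads in CON and 1, 2 and 3 in RA, too few for the filter. All RA samples were below all CON samples, and limma on log2(FPKM + 0.1) with no filter gave a log2FC of -0.67 (adjusted p = 0.167), while edgeR with no filter gave -1.06 (adjusted p = 0.537). Hoxa13 had 6 reads in RA sample 2 and none in any other sample, and Hoxa2 and Hoxa10 had 1 read each in all. For the 3 records without a read, a count of 0 allows up to 3 reads per sample, or 0.0789 to 0.102 CPM, which covers counting error only. RefSeq lists another Hox symbol as a synonym of 4 rat Hox genes, Hoxa2, Hoxa7, Hoxa11 and Hoxc9. The identity of records with these names or synonyms, which include Hoxc8 as a synonym of Hoxc9, is uncertain and was not tested. Whether reads of antisense transcripts within the clusters were kept apart is not given in the sources used here.

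Summed over clusters, the groups overlapped in all 4. The Hoxd sum was 64.8, 62.4 and 64.8 CPM in CON and 61.2, 64.4 and 62.7 in RA. The Hoxc sum was 55.0, 48.1 and 50.7 CPM in CON and 51.2, 52.3 and 50.6 in RA. Neither sum differed between group means by more than the spread within groups. Hoxb summed to 1.73 ± 0.468 CPM in CON and 1.46 ± 0.105 in RA, and Hoxa to 0.669 ± 0.161 and 0.564 ± 0.115 (SD, n = 3). By position, groups 1 to 4 summed to 9.81 ± 0.222 and 9.9 ± 0.528 CPM, groups 5 to 8 to 16.7 ± 0.657 and 15.6 ± 1.09, and groups 9 to 13 to 91.2 ± 4.39 and 90.6 ± 3.29 in CON and RA. The chondrocyte markers moved with the groups while these sums overlapped, and the part of that change in the Hox values was not tested.

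**Figure D4:**
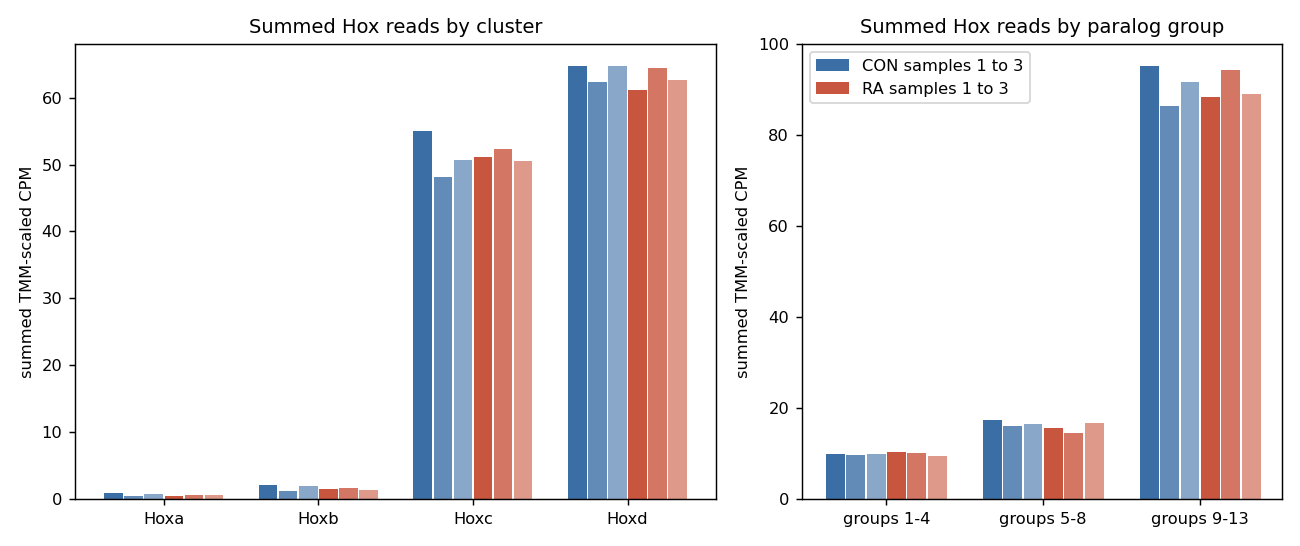
Summed Hox reads per sample in TMM-scaled CPM, not corrected for gene length, by cluster on the left and by paralog group on the right, with CON samples in blue and RA samples in red. Hoxd sums lie between 61.2 and 64.8 CPM and Hoxc sums between 48.1 and 55.0, with both groups in the same range.

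Hox proteins bind DNA together with TALE homeodomain cofactors, and all 9 of these genes were tested. Pknox2 was the only DEG among them (1 of 9, against 4.96% of all tested genes), at 0.919, 0.912 and 0.882 FPKM in CON and 0.553, 0.526 and 0.592 in RA. All RA samples were below all CON samples, with a log2FC of -0.71 (edgeR adjusted p = 0.0219). Meis1 was at 3.61, 3.83 and 3.20 FPKM in CON and 4.78, 4.36 and 4.87 in RA, without overlap. Its log2FC of 0.38 had an edgeR adjusted p of 0.0463 but did not reach the fold threshold. Pbx3 went from 13.5 ± 1.27 to 11 ± 0.308 FPKM (SD, n = 3), with an edgeR adjusted p of 0.0561. The median log2FC of the cofactors was 0.0843, and 4 of the 9 had an unadjusted edgeR p below 0.05, against 24.0% of all tested genes.

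The 22 chromatin regulators of Hox clusters, Polycomb and Trithorax subunits and the insulator factor Ctcf, held no DEG by edgeR, and 1 had an unadjusted p below 0.05, where 4.96% and 24.0% of all tested genes passed. Their median log2FC was 0.0266, and their summed level was 328 to 342 FPKM in CON and 334 to 346 in RA. Of the genes that flank the clusters, 6 of the 8 at hand were tested and none was a DEG by edgeR, with 2 of the 6 at an unadjusted p below 0.05 against the same 24.0%. Of 6 caudal and ParaHox genes, Cdx1 alone was at hand and had no read.

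Limb and skeletal patterning factors held 2 DEGs among 17 tested, 1 in each direction, where 2.67% of all tested genes were higher and 2.29% lower. Prrx2, a homeobox gene of limb mesenchyme, was at 45.9, 57.1 and 62.8 FPKM in CON and 84.2, 85.1 and 91.7 in RA. The groups were apart, with a log2FC of 0.64 (edgeR adjusted p = 0.00949). Dlx5, a regulator of chondrocyte and osteoblast maturation, was at 14.7, 13.3 and 13.3 FPKM in CON and 7.05, 7.52 and 7.93 in RA. It fell by 0.89 on the log2 scale (edgeR adjusted p = 0.000723). Among the factors that mark the limbs, Pitx1 and Tbx4 (hindlimb) averaged 75.0 ± 17.9 and 14.6 ± 0.831 FPKM in CON, and Tbx5 (forelimb) 5.74 ± 0.281 (SD, n = 3). In RA they averaged 92.1 ± 4.47, 14.7 ± 0.702 and 6.17 ± 0.181 FPKM, and none of the 3 was a DEG by edgeR.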

How the data were processed

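Gene counts and FPKM values were deposited for each of the 6 samples. Per the labels, RNA was poly(A)-selected, and the submitters' processing notes name HISAT2, HTSeq 0.13.5 and the build Rnor_6.0. The options and the use of strand are not given in the sources used here. The counts are whole reads per gene as deposited, and the FPKM values are the authors' own, scaled to gene length and library size. All sample columns were used. The members and gene lists were chosen with earlier results of these data known.

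Counts were filtered with filterByExpr (minimum count 10), scaled by TMM and fitted in edgeR 4.0.16 (R 4.3.3) with the group as the only term, and p-values were adjusted by Benjamini-Hochberg over all 13438 tested genes. The common biological coefficient of variation was 0.122. Intervals are 95% and two-sided. FPKM was used to compare genes and TMM-scaled CPM to sum clusters. Hox genes with values per sample were the highest of each cluster, group 1 and retinoid-linked group 4 genes with a read; Hoxd8, Hoxd10, Hoxd11, Hoxd13, Hoxb3, Hoxa7, Hoxa13, Hoxc4, Hoxc6, Hoxc9 and Meis1 were added after their values were seen. Alternatives were DESeq2 1.42.0, limma 3.58.1 on log2(FPKM + 0.1) or log2(FPKM + 1), RLE scaling, other filters, a replicate block and leaving out each sample. The tests were checked on simulated data. No 2 libraries of a group agreed within sampling noise. Pairs across groups were not compared for sampling noise. Protein sequences were not used here.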

Additional observations from a re-analysis of the deposited data

How the results depend on the processing

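No Hox gene became a DEG in any of the 14 other fits, which called 434 (limma on log2(FPKM + 1)) to 755 (edgeR without CON sample 1) of all genes, nor with either of the looser thresholds. Of 221 log2 fold changes of single Hox genes, 189 kept their direction and 32 turned it. All 32 were within 0.249 of 0, and no adjusted p of these 16 genes fell below 0.187. An unadjusted p below 0.05 came up for Hoxd8 in its 3 limma fits and, among genes outside the 16, for Hoxa7 in limma without a filter (limma adjusted p = 0.167). With limma, Hoxc5 was at 0.00216 (pseudocount 0.1, with or without the filter) and 0.00194 (pseudocount 1), and Hoxd3 at 0.0408 and 0.00507. Hoxc6, at 0.000142, went to -0.00059 with RLE, -0.000617 with DESeq2, -0.00245 with a minimum count of 30 and -0.00013 with limma at a pseudocount of 0.1, and kept its direction at a pseudocount of 1. Leaving out 1 sample gave ranges that crossed 0 of -0.828 to 0.0382 for Hoxb4, -0.149 to 0.0482 for Hoxc4, -0.127 to 0.0721 for Hoxc5, -0.133 to 0.118 for Hoxc6, -0.18 to 0.144 for Hoxc8, -0.306 to 0.127 for Hoxc9, -0.0149 to 0.0779 for Hoxc10, -0.287 to 0.249 for Hoxd3, -0.0516 to 0.00165 for Hoxd9 and -0.0649 to 0.00693 for Hoxd10. Without a change of direction the ranges were -0.604 to -0.127 for Hoxa11, -0.736 to -0.368 for Hoxb2, -0.356 to -0.0321 for Hoxc11, 0.201 to 0.34 for Hoxd4, -0.277 to -0.184 for Hoxd8 and 0.263 to 0.564 for Hoxd11. The cause was not tested. Same-numbered samples did not deviate together (correlations 0.0928, -0.0123 and 0.0118), so the numbers were not taken to pair them. With the replicate block, 684 genes in place of 667 and 0 Hox genes were DEGs, Hoxc6 was at -0.00985 and Hoxd3 at 0.0245. Detection by 1 read per sample gave 2 Hoxa and 4 Hoxb genes in place of 1 each, and detection by an FPKM of 1 gave 0 and 0 and a total of 9 in place of 15. The cluster sums moved by less than 1 SD under RLE, FPKM or leaving out a sample. Depth limits the Hoxa and Hoxb genes, and Hoxb4 rests on 6 to 24 reads per sample. It also limits Hoxd3, at 20 to 55 reads, and Hoxd1, Hoxd13, Hoxc12 and Hoxc13, at no more than 5.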

Other observations

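Calcoco1, which lies beside the Hoxc cluster, had 534 reads in RA sample 3 and 22 to 34 in each of the other 5 samples. Its log2 fold change of 2.82 had an edgeR adjusted p of 0.17, and the gene was singled out after its values were seen. Pbx4, a cofactor gene with a mean FPKM ± SD of 0.397 ± 0.0637 for the CON samples and 0.219 ± 0.102 for the RA samples (n = 3), and Emx2, a shoulder girdle factor at 0.319 ± 0.0441 and 0.166 ± 0.0164, had log2 fold changes of -0.87 and -0.95 that did not pass the edgeR test (adjusted p = 0.247 and 0.0694). Prrx1, the partner of Prrx2 in limb mesenchyme, was at 103, 99.6 and 93.9 FPKM in CON and 145, 137 and 139 in RA. Its log2 fold change of 0.49 (edgeR adjusted p = 0.0014) stayed below the fold threshold.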
